A study of Homo sapiens with 18 samples.

Results

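This comparison sets F2, a clone of G401 cells with RB1 deleted, against the RB1-intact control line while both were held in tazemetostat. It uses 6 of the series' 18 libraries, which are F2 tazemetostat replicates 1 to 3 and WT tazemetostat replicates 1 to 3. Of the 55765 genes in the deposited table, the 16418 with a mean normalized count of at least 10 over those 6 libraries were tested. G401 is a cell line from a malignant rhabdoid tumour, a childhood cancer defined by loss of the chromatin remodelling subunit SMARCB1. The control, labelled WT, was made by CRISPR/Cas9 targeting of AAVS1, a locus used as a neutral landing site. F2 and E1 are 2 clones in which both copies of RB1 were deleted with the same editing system, and the submitters report no RB1 protein in either. For 11 days the cells were held in 10 µM tazemetostat, which blocks the enzyme EZH2, or in DMSO as its solvent control, with 3 biological replicates in each of 6 groups. F2 is 1 clone, so a difference that the clone carried before or gained during its isolation cannot be told apart here from an effect of losing RB1.

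RB1 encodes the retinoblastoma protein, which holds back E2F transcription factors until cyclin-dependent kinases phosphorylate it in late G1. E2F activity drives genes of DNA replication, and through the MuvB complexes and B-MYB and FOXM1 it leads on to the genes of mitosis. EZH2 is the catalytic subunit of Polycomb repressive complex 2 (PRC2), which places methyl groups on histone H3 lysine 27 and keeps many developmental genes silent, and rhabdoid tumour cells are known for their dependence on it.

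Promoters of the 2 cell-cycle programmes carry short elements by which they are commonly told apart, the E2F site in genes of DNA replication and the cell cycle genes homology region (CHR) in genes of mitosis. Below are the 250 bases before the RefSeq start site (GRCh38.p14) of GINS2 and of PLK1. Each was the called member of its gene list with the largest log2 difference whose promoter held the element. Capitals mark the element, and both stretches are given 5′ to 3′ on the gene's strand.
GINS2 (chr16:85688955-85689204, minus strand): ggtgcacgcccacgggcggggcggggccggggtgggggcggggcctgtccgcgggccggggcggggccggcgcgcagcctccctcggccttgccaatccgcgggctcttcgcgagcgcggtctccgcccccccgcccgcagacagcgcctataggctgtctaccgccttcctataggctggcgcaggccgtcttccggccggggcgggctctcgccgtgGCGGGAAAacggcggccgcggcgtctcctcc
PLK1 (chr16:23678639-23678888, plus strand): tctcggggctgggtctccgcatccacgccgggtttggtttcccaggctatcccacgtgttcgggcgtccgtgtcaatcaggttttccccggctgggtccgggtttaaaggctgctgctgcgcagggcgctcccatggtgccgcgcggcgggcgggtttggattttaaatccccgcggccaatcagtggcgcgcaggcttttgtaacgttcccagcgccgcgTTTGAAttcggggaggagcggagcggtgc
In GINS2 the capitals are TTTCCCGC read on the opposite strand and begin 31 bases before the start site. In PLK1 they are TTTGAA on the gene's own strand and begin 29 bases before the start site. The letters searched on both strands, from 250 bases before to 50 after the start, were TTTCCCGC and TTTGGCGC for E2F and TTTGAA for the CHR. These letters do not overlap each other as motifs, and a match is a description of sequence and not a measured binding site.

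An E2F motif stood in 23 of the 51 G1/S genes with a promoter in the RefSeq table (45.1%), and in 2 of 54 G2/M genes (3.7%). The G1/S list was drawn up as G1/S and E2F target genes, so its share of E2F motifs follows in part from that choice. The CHR stood in 37 of 54 G2/M genes (68.5%) and in 1 of 51 G1/S genes (1.96%). Of all 35116 promoters in the table, 2.27% held an E2F motif and 15.2% held the CHR. Among the 11221 tested genes with a promoter, the shares were 3.62% and 9.86%. Of genes higher in F2, 7.29% of 741 held an E2F motif and 16.5% held the CHR. These include the called members of the 2 lists. Of the 54 with an E2F motif, 17 were in the G1/S list, and of the 122 with the CHR, 31 were in the G2/M list. Of genes lower in F2, 1.82% of 548 held an E2F motif and 14.2% held the CHR.

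Depth recovered from the values was 32317530 to 35435391 reads in the F2 libraries and 28954561 to 39314860 reads in the WT libraries. The first principal component of the 6 libraries, with 81.5% of the variance, separated the lines. WT replicate 3 had the lowest depth and stood apart on the second component, with 7.2% of the variance, and without it 1376 genes were called higher and 922 lower. SMARCB1 had 0 reads in all 6 libraries, and VIM, a mesenchymal intermediate filament, was at 46202 to 48527 normalized counts in F2 and 38991 to 39939 in WT. The summed level of the 6 epithelial markers was 147053 to 158224 in F2 and 271001 to 283373 in WT, nearly all of it KRT8 and KRT18, and that of the 7 fibroblast markers 12136 to 13585 and 15197 to 15915. The 5 neuronal markers summed to 5638 to 6655 in F2 and 18563 to 19077 in WT, mostly TUBB3, with SNAP25 at 3 reads or fewer. The 5 leukocyte markers summed to 45.6 to 68.4 in F2 and 31.8 to 46.3 in WT, with PTPRC and CD3E at 3 reads or fewer in every library, and the 5 skeletal muscle markers to 24.97 to 43.4 and 22.7 to 25.9, with MYOG and MYF5 at 3 reads or fewer. CD14 and MYOD1 passed 3 reads in F2 and in no WT library. Whether a mixture of cell states bears on any gene below was not tested, and in bulk RNA a smaller number of cells expressing a gene cannot be told apart from less of its RNA per cell.

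RB1, the targeted gene, was measured first. Its normalized counts, which are reads divided by a size factor per library, were 945, 932 and 936 in the F2 libraries and 2517, 2606 and 2300.4 in the WT libraries. Every F2 library lay below every WT library. The log2 difference, F2 minus WT, was -1.40 ± 0.06 (SE, n = 3 libraries per line), and F2 held 37.9% of the WT level (limma adjusted p = 1.8e-12). The remaining transcript does not by itself speak to protein, since the labels give a deletion without its position in the gene.

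EZH2, the target of tazemetostat, was at 2717, 2599.9 and 2632 in F2 and 916, 880.1 and 832 in WT. The lines did not overlap and the log2 difference was 1.60 ± 0.06 (limma adjusted p = 3.0e-13). In DMSO, EZH2 was at 3088 to 3373 in F2 and 2383 to 2560.1 in WT, so its level under the inhibitor was far below its DMSO level in WT and closer to it in F2. The gene is itself an E2F target.

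Across all tested genes, 1231 were higher in F2 under tazemetostat (7.5% of those tested) and 927 were lower (5.65%). A gene counts as called, and is said to have risen or fallen, when its limma adjusted p was under 0.05 and its log2 difference at least 1 in size. Values were compared as log2(normalized count + 1), a scale that understates the change of low genes. In 2123 of the 2158 called genes the F2 and WT libraries did not overlap. Genes that were not called often lacked overlap too, as did 17 of the 74 ribosomal protein genes, none of them called. The share without overlap among all tested genes was not counted, so a lack of overlap does not by itself set a gene apart. Without the fold limit, 4983 genes were called higher and 5499 lower. The share of higher genes among the calls was 57.0% with the authors' scaling and 69.0% when every library was set to the same total, which gave 1615 higher and 725 lower. That scaling moved the median log2 difference of all genes by 0.147, from -0.01 to 0.14, because the normalized totals differed, at 32617729 to 33117535 in F2 and 35657119 to 36771238 in WT. All values below use the authors' scaling, and calls of named genes that the other scaling ends are given. Members of gene lists listed in brackets without a value were named after their values were seen.

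**Figure D1:**
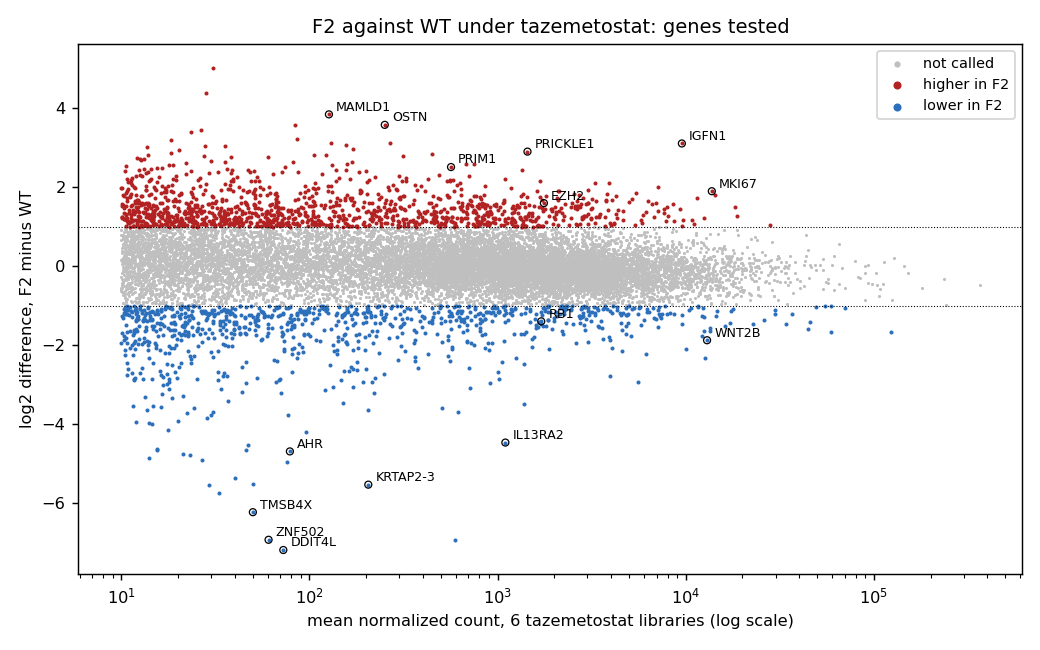
Each point is a tested gene, with its mean normalized count over the 6 tazemetostat libraries on a log scale and its log2 difference, F2 minus WT, on the vertical axis; red and blue mark the 1231 higher and 927 lower genes, dotted lines a difference of 1 in size, and circles some named genes. The falls reach further from 0 than the rises, and the genes furthest down are DDIT4L and ZNF502, which had 0 reads in F2.

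Among the 8 largest rises, of called genes with a mean of at least 50 and no overlap, were MAMLD1, OSTN, FXYD6, SORCS2, IGFN1, GNAO1 and STRA6. MAMLD1, a Mastermind-like nuclear protein linked to genital development, was at 254, 240.2 and 220.1 in F2 and 13.8, 18.7 and 14.8 in WT, a log2 difference of 3.84 ± 0.17 (limma adjusted p = 4.8e-12). OSTN, which encodes the secreted peptide osteocrin, was at 487, 429 and 478 against 36.5, 39.3 and 38.2, a difference of 3.58 ± 0.12 (limma adjusted p = 1.8e-13). For both genes the lowest F2 library was several times the highest WT library. In DMSO, OSTN was also higher in F2, at 671 to 821 against 93.3 to 150 in WT.

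IGFN1, an immunoglobulin-domain protein of muscle, had a high level, at 14780.1, 19153 and 17098 in F2 and 1475, 1698 and 3019.6 in WT, with WT replicate 3 well above the other WT libraries. Its log2 difference was 3.11 ± 0.17, and 2.90 to 3.42 under the alternatives tried (limma adjusted p = 5.7e-11). GNAO1, the brain-enriched G protein alpha subunit, was at 252 to 293 in F2 and 24.3 to 38.2 in WT. FXYD6, a regulator of the sodium pump, was at 443 to 538 against 45.8 to 61.6, and STRA6, the receptor for retinol-binding protein, at 277 to 345 against 31.8 to 49.3. SORCS2, a sorting receptor of neurons, was at 211 to 250.5 against 14.8 to 35.5. These 4 genes had log2 differences of 2.97 to 3.13, with no overlap between the lines.

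The 8 largest falls were DDIT4L, ZNF502, TMSB4X, KRTAP2-3, LCE5A, AHR, IL13RA2 and MYO16. DDIT4L, an inhibitor of mTOR signalling, had 0 reads in every F2 library and normalized counts of 157, 129 and 150.2 in WT, so it was at least 50.0-fold lower in F2 when F2 is set at 3 reads per library. ZNF502, a zinc finger gene, also had 0 reads in F2 and normalized counts of 111, 136 and 117 in WT, at least 41.8-fold lower by the same floor. In F2 with DMSO both genes had 0 reads as well, while WT with DMSO had 0 reads of DDIT4L and normalized counts of 165, 146 and 149 for ZNF502.

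AHR, the ligand-activated aryl hydrocarbon receptor, was at 2.91, 7.07 and 5.55 in F2 and 153, 167 and 137 in WT, a log2 difference of -4.69 ± 0.27 (limma adjusted p = 1.2e-10). IL13RA2, the decoy receptor for interleukin 13, was at 79.6, 98.9 and 105 in F2 and 2242, 2179 and 1895 in WT, a difference of -4.47 ± 0.10 (limma adjusted p = 3.3e-15). MYO16, an unconventional myosin, was at 5.55 to 11.7 against 165 to 192. Both lines were near 0 for AHR and MYO16 in DMSO, with at most 3 and 0 reads in a library, so the tazemetostat libraries of WT are where these genes stood out.

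KRTAP2-3, a keratin-associated protein of hair, was at 6.47 to 9.08 in F2 and 366 to 432 in WT, and LCE5A, of the cornified envelope of skin, at 2.77 to 5.05 and 142 to 159. TMSB4X, the actin-binding thymosin beta 4, had at most 1 read in an F2 library and normalized counts of 55.2, 104 and 140.4 in WT, a fall without overlap. All 3 belong to families of near-identical copies or pseudogenes that share reads, so these values are uncertain. TMSB4X also spread widely among the WT libraries, from 55.2 to 140.4.

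**Figure D2:**
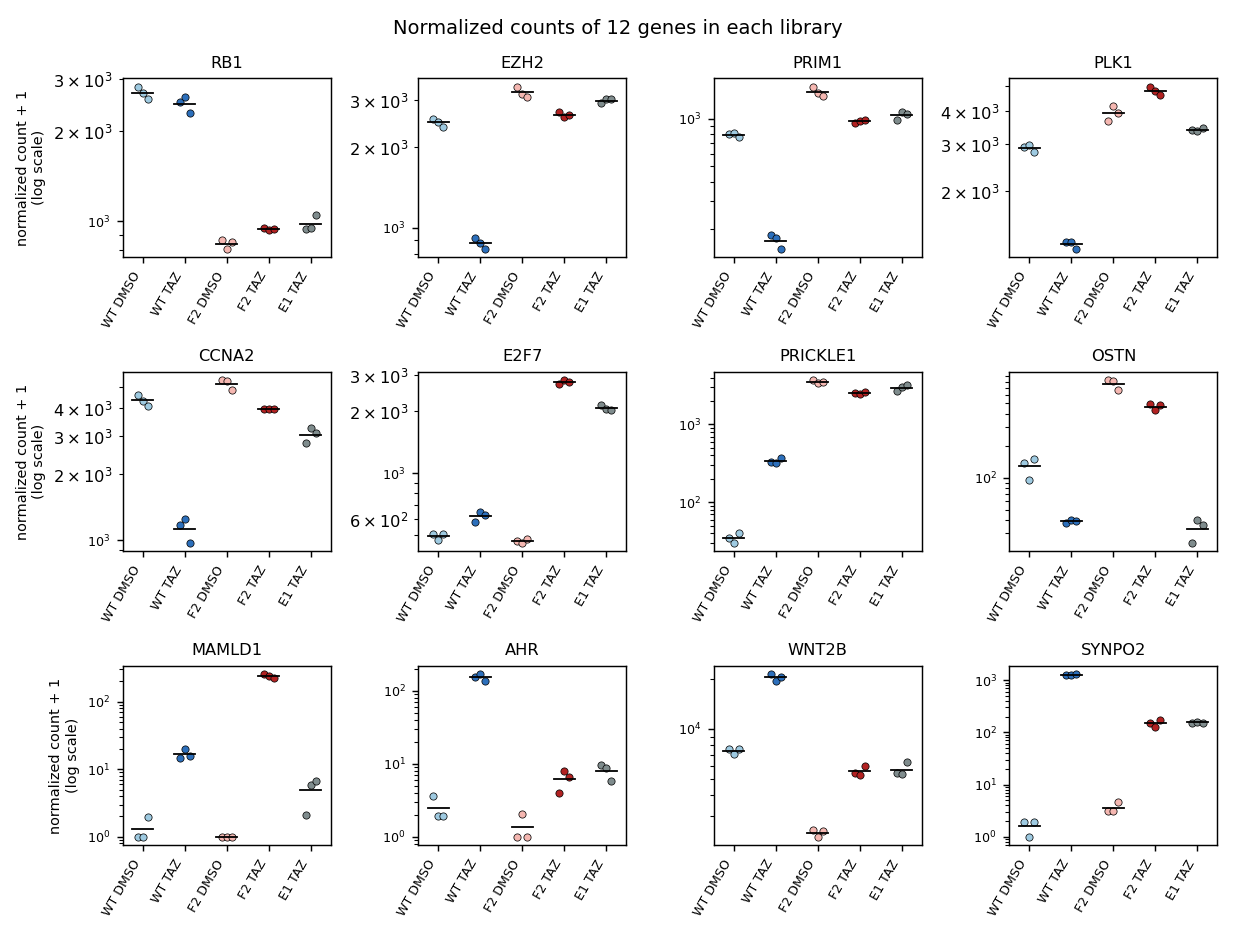
Normalized counts plus 1 on a log scale for 12 genes, with a point for each of the 3 libraries of WT in DMSO, WT in tazemetostat (TAZ), F2 in DMSO, F2 in tazemetostat and E1 in tazemetostat, and a bar at the mean. PRIM1, PLK1, CCNA2 and EZH2 are lowest in WT with tazemetostat, whereas AHR, WNT2B and SYNPO2 are highest there.

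Genes of DNA replication and the G1/S transition, listed together with E2F targets, were higher in F2. Of the 60 members of that list, 42 rose, none fell and 18 were not called, against 7.5% and 5.65% of all genes. The median log2 difference was 1.20, against -0.01 for all genes, and members ran from 0.33 to 2.51. PRIM1, the small subunit of DNA primase, was at 935, 969 and 984 in F2 and 182, 175 and 149 in WT. Every F2 library was above every WT library, and the log2 difference was 2.51 ± 0.09 (limma adjusted p = 2.9e-13).

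GINS2, a subunit of the replicative helicase whose promoter is printed above, was at 1264, 1226 and 1229 in F2 and 362, 439 and 320.2 in WT, a log2 difference of 1.74 ± 0.09 (limma adjusted p = 3.2e-11). In DMSO it was at 1671 to 1718 in F2 and 1519.8 to 1629 in WT, so the lines were close there. TYMS, thymidylate synthase, was at 8193, 7633 and 7922 against 2515, 2584 and 2192, and POLE2, a subunit of DNA polymerase epsilon, at 679.6, 621 and 703 against 229.6, 242 and 187, with differences of 1.71 ± 0.06 and 1.61 ± 0.10. Also called higher were the helicase genes MCM2, MCM4, MCM6 and MCM7, the clamp loader genes RFC2, RFC4 and RFC5, and PCNA, the sliding clamp. Under the alternatives with a fold limit, 39 to 49 members were called.

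Genes of mitosis were also higher in F2. Of 62 G2/M members, 53 rose (85.5%), none fell and 9 were not called, against 7.5% and 5.65% of all genes. The median log2 difference was 1.46 and members ran from 0.44 to 1.93. PLK1, the polo kinase of mitotic entry whose promoter is printed above, was at 4964, 4784 and 4606 in F2 and 1285, 1281 and 1203 in WT. The lines did not overlap, and the log2 difference was 1.93 ± 0.05 (limma adjusted p = 2.7e-14). MKI67, the proliferation marker Ki-67, was at 18484, 23226 and 23440.4 in F2 and 5768, 6023 and 5598 in WT, a difference of 1.90 ± 0.07 (limma adjusted p = 7.5e-13).

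CCNA2, cyclin A2, was at 3973, 3995 and 3989.5 in F2 and 1169, 1244 and 972 in WT, a difference of 1.83 ± 0.07. The 3 F2 libraries lay within a narrow band while the WT libraries spread more widely, with replicate 3 lowest. NUSAP1, a spindle protein, was at 5890.4 to 6025 against 1452 to 1905, and AURKB, the kinase of the chromosomal passenger complex, at 3241 to 3501 against 1133 to 1171. Their differences were 1.82 ± 0.07 and 1.57 ± 0.05. Also called higher were the mitotic regulators CDK1, FOXM1, MYBL2, BUB1, TOP2A and BIRC5, and the list held 51 to 57 called members under the alternatives with a fold limit.

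The RB family, the E2Fs and their DP partners did not move as a block. Of 13 genes, 4 rose (RBL1, E2F2, E2F7 and E2F8), RB1 fell and 8 were not called. These are 30.8% and 7.69%, against 7.5% and 5.65% of all genes. E2F7, an atypical E2F that represses E2F targets, was at 2697, 2822 and 2778 in F2 and 576, 644 and 626 in WT, a log2 difference of 2.17 ± 0.06 (limma adjusted p = 2.7e-14). Its DMSO levels were 457 to 479 in F2 and 474 to 508 in WT, so F2 with tazemetostat stood above the other 3 groups of these 2 lines. E1 with tazemetostat was at 2014 to 2154. E2F8, the second atypical E2F, was at 724 to 797 against 225 to 243, and RBL1, the RB relative p107, at 1081 to 1125 against 392 to 456. E2F1, the founding activator E2F, was at 972, 984 and 919 in F2 and 767, 677 and 752 in WT. Its libraries did not overlap, but its log2 difference of 0.39 ± 0.07 was under the fold limit (limma adjusted p = 7.6e-05).

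Among 16 G1 cyclins, cyclin-dependent kinases (CDKs) and CDK inhibitors, 3 rose (18.75%) and 1 fell (6.25%), against 7.5% and 5.65% of all genes. CCNE2, cyclin E2, was at 589, 506 and 552 in F2 and 229, 217 and 199.5 in WT, and CDK2, its kinase partner, at 2154, 2109 and 2031 and 943, 985 and 922. Both were without overlap, with log2 differences of 1.35 ± 0.09 and 1.14 ± 0.06. CCNE1, cyclin E1, was at 1422 to 1517 against 1089.9 to 1194, a difference of 0.39 that was not called.

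The inhibitors went different ways. CDKN2C, which encodes p18, was at 833, 699 and 759 in F2 and 273, 275 and 282 in WT, a log2 difference of 1.46 ± 0.08. CDKN2D, which encodes p19, was at 179.6, 152 and 163 against 345, 346 and 304, a difference of -1.004 ± 0.10 whose call was lost in 8 of 14 alternatives, the same-total scaling among them. CDKN1A (p21) was at 5156 to 5519 in F2 and 4161 to 4364 in WT, CDKN2A at 5223 to 6000.2 and 3858 to 4279.9, and CDKN2B (p15) at 5184 to 5847 and 7393 to 7916. None of these 3 was called, with log2 differences of 0.30, 0.45 and -0.46, although their libraries did not overlap. CDKN1C (p57) overlapped between the lines, at 52.5 to 65.1 and 34.5 to 67.7.

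Of 71 DNA repair genes, 15 rose, none fell and 56 were not called, with a median log2 difference of 0.52. The share higher was 21.1%, against 7.5% of all genes. FANCA, a core subunit of the Fanconi anaemia complex, was at 1951, 2224 and 2185 in F2 and 514, 596 and 683 in WT, a difference of 1.83 ± 0.09 (limma adjusted p = 7.3e-12). The helicase gene BRIP1 was at 920.4 to 1039 against 266 to 295, the endonuclease gene EME1 at 359.8 to 381 against 105 to 112, and the ligase gene LIG1 at 2259 to 2346 against 763 to 827. None of the 4 overlapped between the lines. With the same-total scaling 23 members were called higher.

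Of 12 PRC2 genes, EZH2 and PHF19 rose and 10 were not called, with a median log2 difference of 0.19. The share higher was 16.7%, against 7.5% of all genes. PHF19, an accessory subunit that guides PRC2 to chromatin, was at 2807, 2883 and 2736 in F2 and 1050.5, 1042 and 996 in WT, a difference of 1.45 ± 0.05 (limma adjusted p = 4.8e-13). Its libraries, like those of EZH2, did not overlap.

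**Figure D3:**
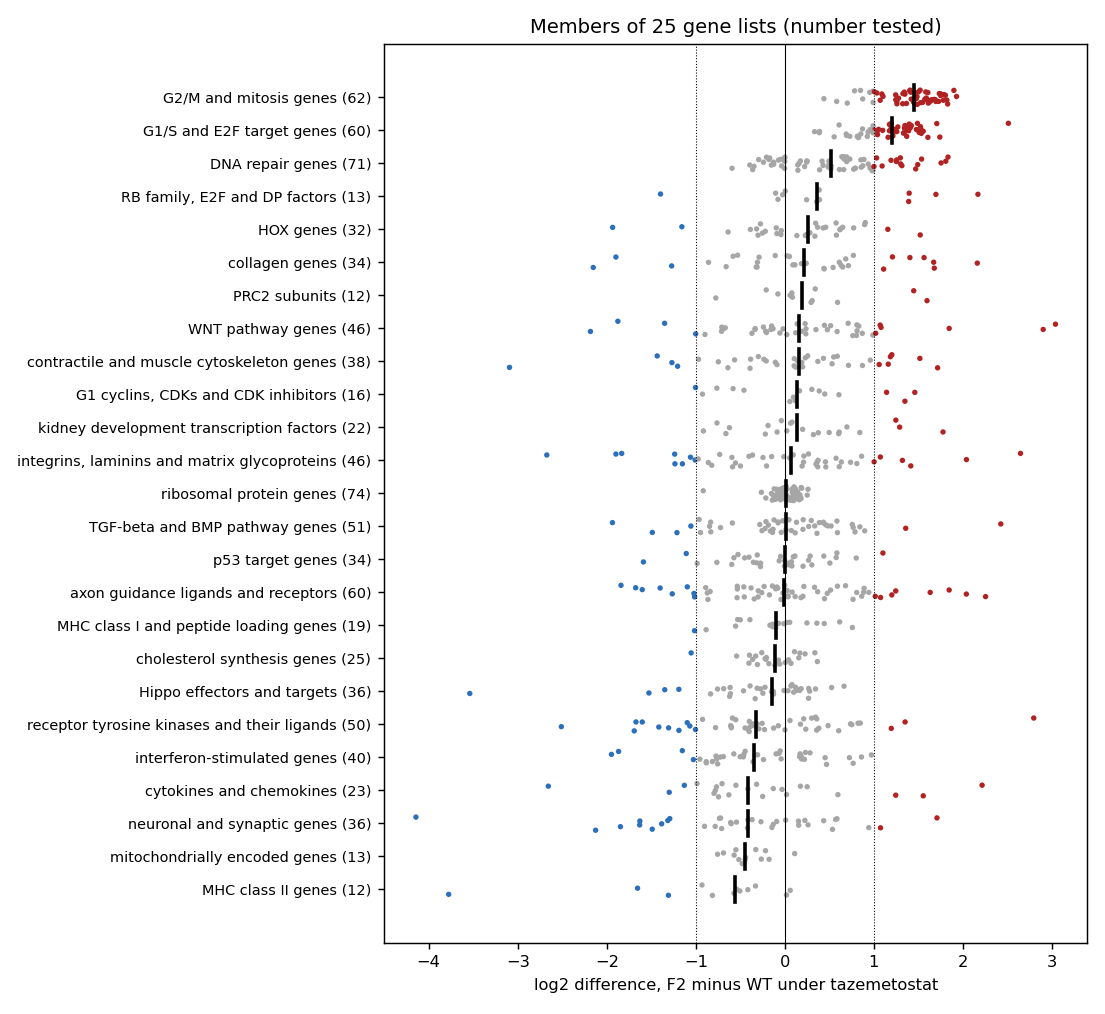
Every tested member of 25 gene lists by its log2 difference, F2 minus WT under tazemetostat, with called members in red or blue, a black bar at the list's median, dotted lines at a difference of 1 in size, and the number tested in brackets. The 2 cell-cycle lists lie wholly to the right of 0, with medians of 1.46 and 1.20, while most other lists straddle 0 and the ribosomal protein genes cluster on it.

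The p53 target list had a median log2 difference of -0.003 over 34 tested members of 35, of which 1 rose (2.94%) and 2 fell (5.88%), no more than in all genes for rises and about as many for falls. EDA2R, a receptor of the tumour necrosis factor family, was at 67.6 to 75.8 in F2 and 140.3 to 163 in WT, and PMAIP1, the pro-apoptotic protein NOXA, at 79.7 to 103 against 37.4 to 48.3. EDA2R fell and PMAIP1 rose, with differences of -1.11 ± 0.13 and 1.10 ± 0.18. The call of EDA2R was lost with the same-total scaling, and that of PMAIP1 without WT replicate 2, where its difference was 0.99. The other 31 members were not called.

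Few genes of antigen presentation and of the interferon response were called, and those that were called were lower in F2. HLA-E, the non-classical class I molecule seen by natural killer cells, was at 5460.4, 4874 and 5087 in F2 and 10618, 10491 and 10040.3 in WT, a log2 difference of -1.02 ± 0.05. It was the only one called of 19 class I and peptide loading genes, 5.26% against 5.65% lower of all tested genes, so this share is at the background, and its call was lost in 5 of 14 alternatives, including the same-total scaling, where the difference was -0.87. Of 12 class II genes tested, HLA-DRB1, HLA-DRB5 and HLA-DQA1 fell (25%), and 1 to 4 members fell under the alternatives with a fold limit. Of the called genes, only HLA-DRB1 also had a mean of at least 50 and no overlap. Whether the others passed the filter on the mean only through WT is not given here. HLA-DRB1, a beta chain with near-identical relatives that share reads, was at 33.0 to 35.3 in F2 and 94.8 to 132 in WT.

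Of 40 interferon-stimulated genes tested from a list of 48, none rose and 4 fell (10.0% against 5.65% of all genes), with a median of -0.35. IFI6, a mitochondrial interferon-induced protein, was at 300.0, 285 and 302 in F2 and 1166, 1122 and 1138 in WT, a difference of -1.95 ± 0.07 (limma adjusted p = 3.0e-13). ISG15, the ubiquitin-like modifier, was at 522 to 595 against 1094 to 1308, RSAD2, the antiviral enzyme viperin, at 20.2 to 28.2 against 73.9 to 98.5, and TRIM22, a restriction factor, at 40.8 to 46.4 against 86.0 to 102. The libraries of these 4 did not overlap. The call of TRIM22 was lost in 4 of 14 alternatives, the same-total scaling among them, and with that scaling 2 members rose and 3 fell.

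Cytokine genes went both ways, with 3 higher (IL32, CX3CL1 and TNF) and 3 lower (CCL20, CXCL5 and TNFSF13B) of 23 tested, 13.0% each way against 7.5% and 5.65% of all genes. CCL20, a chemokine for CCR6-bearing lymphocytes, was at 44.7, 38.4 and 40.7 in F2 and 268, 253 and 273 in WT, a log2 difference of -2.66 ± 0.13 (limma adjusted p = 1.7e-11). CXCL5, a neutrophil chemokine, was at 354 to 363 against 723 to 978. TNF and IL32 rose, TNF at 284, 223 and 255 against 79.8, 93.5 and 83.7 and IL32, a cytokine first found in natural killer cells, at 2144, 1911 and 1828 against 800.2, 947 and 741. All 4 were without overlap, with differences of -1.30 ± 0.10 for CXCL5, 1.55 ± 0.13 for TNF and 1.24 ± 0.08 for IL32. The summed leukocyte markers were low in both lines and overlapped between them, at 45.6 to 68.4 in F2 and 31.8 to 46.3 in WT, and their part in these values was not tested.

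Matrix genes were divided. Of 34 collagen genes tested, 7 rose and 3 fell (COL1A2, COL12A1 and COL25A1), with a median of 0.21. These are 20.6% and 8.82%, against 7.5% and 5.65% of all genes. COL1A1, a chain of the fibrillar collagen of bone and skin, was at 6839, 6101 and 5673 in F2 and 1922, 1999 and 1878 in WT, a log2 difference of 1.68 ± 0.06 (limma adjusted p = 4.8e-13). COL1A2, the other chain of the same collagen, was at 68.0, 31.3 and 52.7 in F2 and 199, 213 and 244 in WT, a difference of -2.15 ± 0.21 (limma adjusted p = 8.8e-08). The 2 chains of type I collagen thus differed between the lines in opposite directions, each without overlap.

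COL3A1, the fibrillar collagen of elastic tissues, was at 12146 to 13302 in F2 and 4286 to 4392 in WT, and COL9A1, a collagen of cartilage, at 451 to 543 and 99.5 to 133. Their differences were 1.56 ± 0.05 and 2.16 ± 0.12. In DMSO, COL3A1 was at 24667 to 27928 in F2 and 25221 to 28423 in WT, so both lines were lower with the inhibitor and WT the more so. Of the 7 fibroblast markers 6 were tested. COL1A1 rose (16.7%) and COL1A2 and THY1 fell (33.3%), against 7.5% and 5.65% of all genes. The part of other cell states in these values was not tested.

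Among 46 integrins, laminins and matrix glycoproteins tested, 6 rose (13.0%) and 8 fell (17.4%), against 7.5% and 5.65% of all genes. FBLN5, an elastic fibre organiser, was at 304, 266 and 246 in F2 and 1836, 1706 and 1669.9 in WT, a log2 difference of -2.67 ± 0.08 (limma adjusted p = 5.2e-14). EFEMP1, a fibulin of basement membranes, was at 314, 276 and 281 against 40.4, 49.6 and 46.8, a difference of 2.65 ± 0.13 in the opposite direction (limma adjusted p = 1.9e-11). HMCN1, hemicentin 1, was at 379 to 529.9 against 1572 to 1844, and the integrin subunit gene ITGA4 at 198 to 207 against 34.5 to 60.8. FBLN5 and HMCN1 fell and EFEMP1 and ITGA4 rose, all without overlap.

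The contractile list had 6 rises and 4 falls (MYL3, SYNPO2, CALD1 and TTN) among 38 tested genes. Its shares were 15.8% and 10.5%, against 7.5% and 5.65% of all genes. SYNPO2, an actin-bundling protein of smooth and striated muscle, was at 149.5, 125 and 174 in F2 and 1232, 1281 and 1304 in WT, a log2 difference of -3.09 ± 0.10 (limma adjusted p = 1.4e-13). MYLK, the kinase that starts smooth muscle contraction, was at 746, 734 and 752 against 212, 238 and 229, a difference of 1.71 ± 0.08 (limma adjusted p = 6.2e-12). Neither gene overlapped between the lines. The summed skeletal muscle markers were low in both and overlapped, at 24.97 to 43.4 in F2 and 22.7 to 25.9 in WT, and their part in these values was not tested.

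Axon guidance genes, many of them used in tissues outside the nervous system, were split evenly, with a median of -0.01. There were 8 rises and 8 falls of 60 tested, 13.3% each way against 7.5% and 5.65% of all genes. With the same-total scaling there were 12 rises and 5 falls. NTN1, the secreted guidance cue netrin 1, was at 1479.7, 1347 and 1334 in F2 and 342, 337 and 331 in WT, a difference of 2.04 ± 0.07 (limma adjusted p = 1.8e-13). PLXNC1, a semaphorin receptor, was at 152 to 184 against 40.2 to 58.1 and rose, while SEMA4G, a membrane semaphorin, was at 645 to 715 against 2020.2 to 2211 and fell.

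Of 36 neuronal and synaptic genes tested from a list of 61, 9 fell and 2 rose (NCAM1 and CADM1), with a median of -0.42. The share lower was 25% against 5.65% of all genes, and the share higher 5.56% against 7.5%. TUBB3, the neuronal beta tubulin, was at 6618, 6045 and 5604 in F2 and 18488, 18950.1 and 19013 in WT, a log2 difference of -1.63 ± 0.06 (limma adjusted p = 2.9e-13). NRXN3, a presynaptic adhesion protein, was at 63.1 to 80.5 against 294 to 337, and HTR2A, a serotonin receptor, at 59.2 to 73.7 against 224 to 239. NCAM1, a neural adhesion molecule, went the other way, at 440.1 to 475 against 124 to 153. The libraries of all 4 were without overlap. The neuronal markers TUBB3, SYT1 and RBFOX3 were called too, the first 2 lower and the last higher, and SNAP25 was at 3 reads or fewer; the part of other cell states was not tested.

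In the WNT pathway, 6 of 46 tested genes rose and 4 fell (WNT2B, WNT5B, WNT11 and RSPO3), 13.0% and 8.7% against 7.5% and 5.65% of all genes. PRICKLE1, a protein of planar cell polarity, was at 2531, 2466 and 2632 in F2 and 332, 319 and 369 in WT, a log2 difference of 2.90 ± 0.07 (limma adjusted p = 3.8e-15). Its DMSO levels were 3374 to 3681 in F2 and 29.2 to 39.7 in WT, so the lines lay further apart without the inhibitor. WNT2B, a secreted WNT ligand, was at 5423, 5302 and 5959 in F2 and 21282, 19382 and 20535 in WT, a difference of -1.88 ± 0.06 (limma adjusted p = 5.1e-14). RSPO3, a secreted enhancer of WNT signalling, was at 29.6 to 34.3 against 107 to 204 and fell.

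Of 51 tested genes of TGF-beta and BMP signalling, 2 rose (SMAD9 and ID4) and 4 fell (TGFBR3, INHBA, GDF11 and BAMBI). These shares of 3.92% and 7.84% lie near the 7.5% and 5.65% of all genes, and the median was 0.01. The ligand subunit INHBA was at 144, 168 and 130.4 in F2 and 601, 642 and 464 in WT, and the co-receptor TGFBR3 at 2869, 3048 and 3172 and 8956, 8504 and 8060.1. Both fell, with log2 differences of -1.94 ± 0.12 and -1.49 ± 0.05. SMAD9, a BMP signal transducer, was at 1758 to 1907 against 701 to 751. ID4, a helix-loop-helix inhibitor induced by BMPs, was at 2386, 2153 and 2265 against 416, 434 and 414. SMAD9 and ID4 rose without overlap, and ID4 had the larger difference, 2.43 ± 0.06. Both were called higher in F2 in DMSO too, with log2 differences of 1.21 for SMAD9 and 2.94 for ID4.

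No Hippo effector or target rose among 36 tested, against 7.5% of all genes. Lower were 4 (F3, IGFBP3, NT5E and RBMS3), which is 11.1% against 5.65% of all genes. NT5E, which encodes the ectoenzyme CD73, was at 1724, 1655 and 1928 in F2 and 5132, 5479 and 4689.5 in WT, a log2 difference of -1.53 ± 0.07. IGFBP3, a carrier of insulin-like growth factors, was at 4799 to 5257 against 11161 to 11888, and F3, tissue factor, at 54.4 to 69.4 against 140.3 to 159. None of the 3 overlapped between the lines.

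Of 50 receptor tyrosine kinases and ligands tested, 10 fell and 3 rose (FGF9, IGF2 and VEGFC), with a median of -0.33. The share lower was 20% against 5.65% of all genes, and the share higher 6% against 7.5%. IGF2, the fetal insulin-like growth factor, was at 11529.5, 11125 and 10310.0 in F2 and 4285, 4168 and 4469 in WT, a log2 difference of 1.35 ± 0.05 (limma adjusted p = 9.0e-13). Its DMSO levels were 9.22 to 14.6 in F2 and 18.3 to 33.0 in WT. KITLG, the ligand of KIT, was at 265 to 286 against 809 to 898, and the receptor gene ERBB4 at 33.3 to 42.4 against 187 to 256. Both fell without overlap, with differences of -1.60 ± 0.08 and -2.51 ± 0.16.

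Of 32 tested HOX genes, 2 rose (HOXA2 and HOXC5) and 2 fell (HOXB9 and HOXB13), 6.25% each way and near the 7.5% and 5.65% of all genes. HOXB13, a HOX gene of the posterior body, was at 1143, 1045 and 1067 in F2 and 4306, 4203 and 3947 in WT, a difference of -1.94 ± 0.06 (limma adjusted p = 4.2e-14).

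Lists of housekeeping processes served as a scale. None of 74 ribosomal protein genes was called, with a median of 0.02. None of the 13 mitochondrially encoded genes was called either, but their median was -0.45, and 0.25 in DMSO. By chromosome, the median log2 difference over 23 chromosomes lay between -0.06 and 0.05 under tazemetostat.

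The second question is how much of this was present without the inhibitor. In DMSO, over the same 16418 genes, 101 were higher in F2 (0.615%) and 260 lower (1.58%). These counts rest partly on single libraries: without WT DMSO replicate 2 they were 64 and 164, and without WT DMSO replicate 1 they were 67 and 176. The DMSO and tazemetostat contrasts share no library. Higher in both were 57 genes, which is 4.63% of those higher under tazemetostat and 56.4% of those higher in DMSO. Lower in both were 136 genes, 14.7% of those lower under tazemetostat and 52.3% of those lower in DMSO. With each DMSO library left out in turn, the shares of the DMSO calls were 50.6% to 55.8% for higher and 50.6% to 55.7% for lower genes. Among named genes higher in both were OSTN, ITGA4, SMAD9 and ID4, with log2 differences in DMSO of 2.61, 1.60, 1.21 and 2.94. RB1, WNT2B and SEMA4G were lower in both, at -1.68, -1.63 and -1.09 in DMSO. None of these named genes was called in the test of the difference of the differences described below. No member of the G1/S or G2/M lists was called in DMSO, where the medians were 0.16 and 0.30. Members ran there from -0.36 to 0.90 in the first list and from 0.01 to 0.65 in the second. Every G2/M member was thus slightly higher in F2, and some genes passed the p limit but not the fold limit. PRIM1 was at 1387 to 1591 in F2 and 764 to 808 in WT with DMSO, a log2 difference of 0.90 (limma adjusted p = 0.0026).

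The difference of the differences was then tested with limma over the 12 F2 and WT libraries. The F2 minus WT difference was higher under tazemetostat than in DMSO for 873 genes (5.32%) and lower for 534 (3.25%). With the same-total scaling the share of higher genes among these calls went from 62.0% to 72.7%. Of the G1/S list, 33 of 60 members were called higher in this test and of the G2/M list 46 of 62, with none lower. CCNA2 had a difference of 1.83 under tazemetostat and 0.26 in DMSO, and the gap of 1.57 ± 0.11 was called (limma adjusted p = 1.7e-07). E2F7 had 2.17 and -0.08, a gap of 2.25 ± 0.08 (limma adjusted p = 6.7e-10).

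The levels behind these gaps differed from gene to gene. PLK1 was at 2800.2 to 2972 in WT with DMSO and 1203 to 1285 with tazemetostat, and at 3678 to 4196 and 4606 to 4964 in F2. NUSAP1 was at 5769 to 6098 and 1452 to 1905 in WT, and at 8169 to 8895 and 5890.4 to 6025 in F2. For both, WT with tazemetostat was the lowest of the 4 groups, without overlap with any other, and PLK1 was also higher in F2 with tazemetostat than with DMSO. For E2F7 it was F2 with tazemetostat that lay apart from the other 3 of these groups, at 2697 to 2822 against 457 to 479 with DMSO. WT was at 576 to 644 with tazemetostat and 474 to 508 with DMSO. E1 with tazemetostat was also high, at 2014 to 2154, so this level was not particular to F2.

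Some genes with a line difference under tazemetostat were silent without it. Of tested genes, 1005 (6.12%) had 3 reads or fewer in all 6 DMSO libraries, and these made up 195 of the higher genes (15.8%) and 245 of the lower genes (26.4%). Genes were tested on their mean under tazemetostat alone, so a gene silent in DMSO could enter only through a line in which it was high under the inhibitor, and one silent under the inhibitor could not enter. These shares follow in part from that filter. Another 14 genes were called in opposite directions, chosen here after their values were seen. Among those higher in F2 under tazemetostat and lower in DMSO were EMP2, ETV1, FOXP2, MDFIC, PKP2, PLCE1, PTGFRN, SLC52A3 and XKR7. The reverse held for CLDN16, EPHA3, HTR2A and RASGRP3. HTR2A was at 21.5, 20.7 and 21.8 in F2 and 0, 1.88 and 0 in WT with DMSO, the opposite order from that under tazemetostat.

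**Figure D4:**
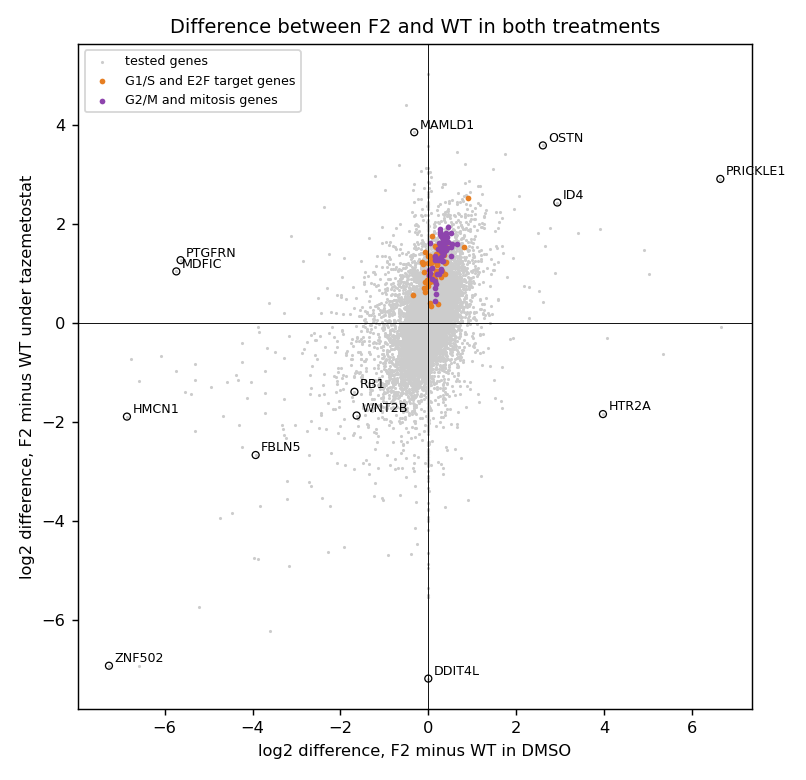
Each tested gene by its log2 difference, F2 minus WT, in DMSO (horizontal) and under tazemetostat (vertical), with G1/S genes in orange, G2/M genes in purple and some named genes circled. The cell-cycle genes lie above 0 on the vertical axis and within 0.9 of 0 on the horizontal axis, while PRICKLE1 and ZNF502 are far from 0 on both.

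E1, the other RB1-deleted clone, was compared with F2 directly. Under tazemetostat, 893 genes were higher in F2 than in E1 (5.44%) and 370 lower (2.25%). This contrast shares the F2 libraries with the main one, so only each gene's own values are set side by side. Of the G1/S list, none was higher in F2 than in E1 and CCNE2 was lower, with a median log2 difference of 0.02. Of the G2/M list none was called in either direction, with a median of 0.28 and a range of -0.08 to 1.00. Some of its genes differed under the fold limit. PLK1 was at 3367 to 3457 in E1 and 4606 to 4964 in F2, a difference of 0.49 (limma adjusted p = 7.2e-06). AURKB was at 2463 to 2676 in E1 and 3241 to 3501 in F2, a difference of 0.43 (limma adjusted p = 6.0e-05). PRIM1 was at 972, 1097 and 1075 in E1, overlapping the F2 libraries, and GINS2 at 1267, 1422 and 1301, just above them. CCNE2 was at 1168, 1221 and 1190.0 in E1, above F2, a difference F2 minus E1 of -1.12 (limma adjusted p = 2.3e-08).

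Some of the largest rises and falls separated the clones. OSTN was at 23.4, 38.7 and 34.9 in E1, overlapping WT, and MAMLD1 at 1.06, 4.84 and 5.65, below WT. ZNF502 was at 124, 111 and 96.1 in E1, where F2 had 0 reads. The differences F2 minus E1 were 3.83 for OSTN and 5.79 for MAMLD1 (limma adjusted p = 2.7e-10 and 7.6e-09). For FXYD6, SORCS2, GNAO1, KRTAP2-3, LCE5A, IL13RA2 and MYO16 the E1 libraries lay between those of F2 and WT, and F2 was called against E1.

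For other genes E1 lay near F2. AHR was at 8.52, 7.74 and 4.71 in E1, WNT2B at 5447, 5341 and 6319 and SYNPO2 at 149, 161 and 152, each overlapping the F2 libraries. The differences F2 minus E1 were -0.40, -0.03 and -0.05, with limma adjusted p of 0.5, 0.73 and 0.78, which does not show the clones to be equal. DDIT4L had at most 3 reads in an E1 library, and STRA6 was at 155 to 287 in E1. Neither was called between the clones, with differences F2 minus E1 of -1.32 and 0.51.

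Some matrix and p53-list genes also differed between the clones. Of 34 collagen genes, 11 were higher and 2 lower in F2 than in E1, and of 34 p53 targets 3 were higher and 6 lower, against 5.44% and 2.25% of all genes. COL1A1 was at 1659.8, 1411 and 1439 in E1, below WT, and COL1A2 at 379, 457 and 426, above WT. EDA2R was at 1328, 1306 and 1284 in E1, above every F2 and WT library, and CDKN1A at 10891, 10559 and 10771. The differences F2 minus E1 were 2.04 for COL1A1, -3.09 for COL1A2, -4.19 for EDA2R and -1.02 for CDKN1A. Among the inhibitors, CDKN2B was at 1451, 1472 and 1695 in E1, a difference of 1.85 (limma adjusted p = 6.4e-11). PGBD5, a transposase-derived gene expressed in rhabdoid tumours, was at 703 to 744 in F2, 838 to 867 in WT and 969.9 to 1042 in E1 and was called in neither contrast.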

How the data were processed

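RNA was sequenced from 18 G401 libraries in 6 groups of 3, grouped by the sample titles. The submitters' processing notes name Trim Galore 0.4.4, STAR 2.6.0a, HTSeq, DESeq2 and build hg19; the annotation and strand setting are not given in the sources used here. The deposited values are a signal: each library's gene counts had been divided by that library's own size factor, and multiplying back gave whole reads for 100% of values in each column. PCR copies were not told apart, so floors of 3 reads cover counting error only.

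limma 3.58.1 (R 4.3.3; lmFit, eBayes with trend) was run on log2(value + 1) fitting each contrast on its own groups, with Benjamini-Hochberg adjustment over 16418 genes, and was tested on simulated data. Alternatives were pseudocount 5, a minimum mean of 50 or none, no fold limit, the same total per library, all 18 libraries in 1 fit, a replicate block, each replicate left out, and, on recovered reads, DESeq2 1.42.0 and the quasi-likelihood test of edgeR 4.0.16. An exact permutation test of 3 against 3 cannot give p below 0.1.

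Genes named were a fixed set of cell-cycle genes with EZH2 and PGBD5, the 8 largest rises and falls with a mean of at least 50, no overlap and no clone-based symbol, and up to 4 such called members per list; some of these genes are not reported here. The 25 gene lists, 7 marker lists and these genes were chosen with earlier results of these data known. Promoters are RefSeq's (GRCh38.p14), matched by symbol. Replicates differed by more than sampling noise. Figures used matplotlib 3.10.9.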

Additional observations from a re-analysis of the deposited data

Results flagged for a closer look

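The results here were picked out because the F2 minus WT difference under tazemetostat differed from that in DMSO in a test of the difference itself (limma interaction over 12 libraries). That held for 873 genes in the upward direction and 534 in the downward direction. Of these, 385 had 3 reads or fewer in every DMSO library, and edgeR called 18 of them, against 952 of the other 1022. Of the 63 genes named below, the 17 with so few DMSO reads were called by edgeR in 1 case (SYNPO2) and the other 46 in all cases.

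Values are log2, tazemetostat minus DMSO. In the replication list they were 1.61 for PRIM1, 1.65 for GINS2, 1.35 for TYMS, 1.30 for POLE2, 1.36 for CCNE2 and 1.10 for RBL1. In the mitosis list they were 1.49 for PLK1, 1.62 for MKI67, 1.57 for CCNA2, 1.29 for NUSAP1 and 1.21 for AURKB. Near the RB and PRC2 axes they were 2.25 for E2F7, 1.49 for E2F8, 1.22 for EZH2 and 1.14 for PHF19, and in DNA repair 1.59 for FANCA, 1.52 for BRIP1, 1.30 for EME1 and 1.10 for LIG1.

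Among the largest rises the values were 4.16 for MAMLD1, 3.13 for FXYD6, 3.17 for SORCS2, 1.64 for IGFN1, 3.22 for GNAO1 and 4.18 for STRA6. Among the largest falls they were -7.19 for DDIT4L, -5.53 for KRTAP2-3, -4.96 for LCE5A, -3.78 for AHR, -4.20 for IL13RA2 and -4.20 for MYO16. The value of DDIT4L, with 0 reads in 3 of the 4 groups, is a fitted one that depends on the pseudocount.

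Immune genes gave -1.42 for IFI6, -1.02 for ISG15, -1.87 for RSAD2, -2.66 for CCL20, -1.30 for CXCL5, 2.36 for TNF and 2.18 for IL32. Matrix and contractile genes gave 1.75 for COL9A1, 1.16 for COL1A2, 1.52 for COL1A1, 1.57 for COL3A1, 1.25 for FBLN5, 2.65 for EFEMP1, 4.96 for HMCN1, -4.29 for SYNPO2 and 3.05 for MYLK. COL1A2, FBLN5 and HMCN1, and RSPO3, NT5E, IGFBP3 and ERBB4 in the next group, were lower in F2 in both treatments, so their positive values record a smaller gap with the inhibitor. PRICKLE1 was higher in F2 in both, and its negative value likewise records a smaller gap.

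Neural genes gave 1.82 for NTN1, 1.84 for PLXNC1, -2.13 for NRXN3, -5.82 for HTR2A and 1.37 for NCAM1. Signalling genes gave -3.74 for PRICKLE1, 3.12 for RSPO3, -1.94 for INHBA, -1.31 for TGFBR3, 2.59 for NT5E, 2.85 for IGFBP3, -2.30 for F3, 1.73 for ERBB4, 2.32 for IGF2 and -1.66 for KITLG, and HOXB13 gave -1.78. For NCAM1, which had at most 1 read in a DMSO library, edgeR put the value at -0.25 (edgeR adjusted p = 0.59).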

How the results depend on the processing

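Without a fold limit the calls were 4983 higher and 5499 lower for F2 against WT under tazemetostat, 1203 and 1541 in DMSO, 3679 and 3477 for F2 against E1, and 2848 and 2992 for the interaction; the share higher under tazemetostat was then 47.5%. A minimum mean of 50 left 749 and 570 under tazemetostat, 463 and 233 against E1 and 304 lower in the interaction. No filter gave 1860 higher under tazemetostat and 560 lower against E1. The interaction had 323 lower genes with edgeR and 310 with DESeq2. Leaving out each replicate gave 1196 to 1376 higher and 901 to 933 lower under tazemetostat, 64 to 98 and 164 to 242 in DMSO, 828 to 1039 and 365 to 385 against E1, and 778 to 1001 and 495 to 533 in the interaction. edgeR called 2117 of the 2158 genes (98.1%) in the same direction and DESeq2 2059.

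Same-numbered libraries of F2 and WT under tazemetostat had deviations that correlated at 0.10, -0.07 and 0.09, and in DMSO at 0.15, 0.09 and 0.34. In neither treatment was every pair over 0.1, so the numbers were not taken to pair the libraries, although in DMSO every library but F2 replicate 2 correlated best with its own number. With the replicate block the counts were 1239 and 927 under tazemetostat, 104 and 252 in DMSO, 886 and 369 against E1, and 970 and 547 in the interaction, and 315 of the 361 DMSO calls remained. Of 88 named genes, 76 kept direction and call in every alternative; CDKN1C turned to -0.10 without WT replicate 1 (limma adjusted p = 0.70) and was at most 0.38 when any other library was left out. The 5 named genes CDKN2D, PMAIP1, EDA2R, HLA-E and TRIM22, just past the fold limit, lost their call in some alternatives, and 6 others were called once the limit was dropped.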

Other observations

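Keratin genes were chosen after their values were seen. Of 13 tested, 7 were called higher in F2 under tazemetostat and KRT20 lower, against 7.5% and 5.65% of all tested genes. KRT20, with means of 0.31 in F2 and 30.5 in WT, passed the filter on the mean only through WT. KRT19 and KRT71, called higher, passed it only through F2. KRT5, a keratin of basal epithelium, was at 2599 ± 214 normalized counts in F2 and 771 ± 64.3 in WT (SD, n = 3), and KRT15 at 215 ± 14.6 and 29.5 ± 2.09. Both were at 1 read or fewer in every DMSO library. KRT8 and KRT18, the keratins of simple epithelium, differed by -0.87 each on the log2 scale and were not called. Of 111 keratin-associated and late cornified envelope genes in the deposited values, 6 were tested and all 6 were lower in F2. Their means were 0.34 to 7.78 in F2 and 18.7 to 403 in WT. Each thus passed the filter of a mean of at least 10 only through WT, and could only be lower in F2. Their near-identical copies also share reads.

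Of 7 tested genes linked to the aryl hydrocarbon receptor, 4 fell (AHR, CYP1A1, CYP1B1 and TIPARP), against 5.65% of all tested genes. CYP1A1, a cytochrome P450 induced by that receptor, was at 25.2, 29.3 and 28.7 in F2 and 249, 211 and 255 in WT under tazemetostat, and at 18.7 to 27.7 and 14.0 to 22.6 in DMSO. CYP1B1 was at 29.9 ± 4.50 against 132 ± 14.7 and TIPARP at 635 ± 47.4 against 1397 ± 66.5. AHRR, ARNT and NQO1 were not called, with log2 differences of 0.07, 0.11 and 0.19. The set was chosen after the value of AHR was seen, and no reason for the pattern was tested.

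Matrix metalloproteinases, also chosen after their values were seen, differed within their family, with 2 higher and 3 lower of 11 tested. Of all tested genes, 7.5% were higher and 5.65% lower. MMP1, an interstitial collagenase, was at 69.9, 75.7 and 84.2 in F2 and 861, 1105 and 848 in WT, and MMP10 at 234 to 261 and 1584 to 2009. MMP2, a gelatinase, was at 239, 225 and 243 in F2 and 44.3, 40.2 and 43.1 in WT. Of 35 histone cluster genes tested, 14 were lower and 3 higher in F2, with a median log2 difference of -0.73. They too were chosen after their values were seen, and the same shares of all tested genes apply. Most histone transcripts lack a poly(A) tail and many have near-identical copies, so their values here are uncertain.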
